A study of Homo sapiens with 6 samples.

Results

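The phospholipid phosphatase family comprises 10 human genes, PLPP1, PLPP2, PLPP3, PLPP4 and PLPP5 together with PLPPR1, PLPPR2, PLPPR3, PLPPR4 and PLPPR5. They were selected by gene symbol from the 57885 genes counted in the series, with earlier results of these data known. The study had listed PLPP4 and PLPPR3 among the genes that were downregulated in MUL1(-/-) cells. All 10 members had rows in the count tables. Of the 10, 8 had enough counts to be tested between genotypes, and PLPPR4 and PLPPR5 did not.

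RNA was sequenced from HEK293 cells, a human embryonic kidney line, as 3 libraries of wild type (WT) cells and 3 libraries of MUL1(-/-) cells, in which MUL1, a mitochondrial E3 ubiquitin ligase, had been inactivated with CRISPR-Cas9. Both genotypes were grown in DMEM with fetal calf serum, without drug treatment. The sources used here do not say whether the libraries labelled MUL1(-/-) come from 1 clone or several, nor whether the 3 libraries of a genotype came from separate cultures, so p-values measure only the spread between these libraries. A difference between clones and a difference due to MUL1 cannot be told apart in this design.

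PLPP1 to PLPP3 are membrane enzymes whose active site faces the cell exterior or the lumen, where they remove the phosphate from lysophosphatidate, phosphatidate, sphingosine 1-phosphate and ceramide 1-phosphate and so end or reshape signalling by these lipids. PLPP4 and PLPP5 act on phosphatidate and diacylglycerol pyrophosphate. The PLPPR proteins share the membrane topology but lack residues needed for catalysis, and are best known from neurons, where they take part in neurite outgrowth and synaptic lipid signalling.

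Sequence around the start sites is described first. In the libraries labelled MUL1(-/-) 4 members were called lower, PLPP2, PLPP4, PLPPR1 and PLPPR3. A link between sequence and level was not tested. RefSeq promoter windows were found for 7 of the 10 members, as 9 windows. The 250 bases before the RefSeq start are shown for PLPPR3, PLPP4 and PLPPR1. They are read 5′ to 3′ on the gene's strand of GRCh38.p14, with each CG dinucleotide in capitals. They span chr19:821956-822205 on the minus strand, chr10:120456704-120456953 on the plus strand and chr9:101028477-101028726 on the plus strand. The counted exons of PLPPR3 begin inside its window, over chr19:821956-821977, and those of PLPPR1 begin inside its window, from chr9:101028709.

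PLPPR3 promoter: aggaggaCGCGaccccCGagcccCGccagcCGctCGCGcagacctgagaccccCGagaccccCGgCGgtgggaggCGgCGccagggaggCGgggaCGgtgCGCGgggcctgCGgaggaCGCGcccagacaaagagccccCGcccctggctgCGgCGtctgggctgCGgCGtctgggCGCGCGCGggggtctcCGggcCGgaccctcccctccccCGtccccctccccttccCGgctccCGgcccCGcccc
PLPP4 promoter: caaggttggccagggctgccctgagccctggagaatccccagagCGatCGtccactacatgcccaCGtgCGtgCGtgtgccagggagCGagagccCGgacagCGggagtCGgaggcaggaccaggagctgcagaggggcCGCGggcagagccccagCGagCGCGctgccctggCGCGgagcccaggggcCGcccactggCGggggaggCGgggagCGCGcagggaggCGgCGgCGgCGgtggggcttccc
PLPPR1 promoter: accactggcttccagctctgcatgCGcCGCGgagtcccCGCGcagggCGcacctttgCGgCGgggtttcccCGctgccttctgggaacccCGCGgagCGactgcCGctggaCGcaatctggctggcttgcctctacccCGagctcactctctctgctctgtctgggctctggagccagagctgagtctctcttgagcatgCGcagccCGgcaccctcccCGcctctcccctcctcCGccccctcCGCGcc

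The PLPPR3 window held 34 CG dinucleotides, the PLPP4 window 25 and the PLPPR1 window 21, against a median of 11 over 35116 promoter windows of the same length. At least as many were found in 6.84% of all windows for PLPPR3, in 21.6% for PLPP4 and in 30.2% for PLPPR1. The windows of PLPP4 and PLPPR1 are the first of 2 listed for each gene. The second PLPPR1 window held 1 CG, where 93.9% of all windows had at least as many, and the second PLPP4 window held 34. The PLPP2 window, which also overlaps annotated exons and is not printed, held 32. Of the members not called lower, the window of PLPPR5, a gene with almost no counts here, also held 34, while those of PLPP3 and PLPPR4 held 7 and 16. No window was found for PLPP1, PLPP5 and PLPPR2, so members that fell were not compared with the others. The letters TATAAA, searched on both strands, were in none of the 9 member windows and in 10.7% of all windows. These are descriptions of letters and say nothing about the factors that bind there.

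Sequence was also examined for PLPP1, since its gene carries 2 alternative second coding exons. Exon 2a lies at chr5:55490960-55491114 and exon 2b at chr5:55475299-55475450, both on the minus strand of GRCh38 and both wholly coding in GENCODE 29. They are 155 and 152 bases long. Capitals mark the bases that are identical in a global alignment, 85 of 161 aligned columns, or 52.8%.

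PLPP1 exon 2a: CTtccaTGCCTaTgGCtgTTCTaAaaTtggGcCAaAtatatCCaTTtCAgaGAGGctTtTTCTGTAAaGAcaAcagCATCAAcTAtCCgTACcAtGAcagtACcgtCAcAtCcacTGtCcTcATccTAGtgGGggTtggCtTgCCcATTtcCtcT
PLPP1 exon 2b: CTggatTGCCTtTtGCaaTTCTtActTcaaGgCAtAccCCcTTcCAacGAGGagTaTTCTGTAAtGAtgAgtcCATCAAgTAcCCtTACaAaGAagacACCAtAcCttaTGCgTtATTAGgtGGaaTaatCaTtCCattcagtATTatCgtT

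Exon 2b carried most of the counts in every library. In WT it had 165, 177 and 131 counts against 21, 24 and 25 for exon 2a, and in the libraries labelled MUL1(-/-) it had 154, 165 and 150 against 24, 16 and 24. Exon 2a thus made up 13.1% ± 2.57 of the pair in WT and 12.04% ± 2.77 in the libraries labelled MUL1(-/-) (SD, n = 3 each), and the library ranges overlapped. This pair was chosen after its counts were seen, so no test is given.

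All levels below are in CPM, the usual count scaled to library size, in which counts were summed over a gene's exon bins and scaled by library totals and TMM factors. The deposited tables list exon bins, the pieces left when overlapping exons are split. A read appears to be counted in each bin that it touches, since neighbouring PLPP5 bins of 5 and 1 bases had 76, 68 and 45 counts and 76, 67 and 45 counts in WT. Gene counts summed to 139040422 to 156245451 in WT libraries and 133474497 to 134286388 in the libraries labelled MUL1(-/-), and all 3 pairs of libraries in each genotype differed by more than sampling noise. The targeted gene did not separate the genotypes. MUL1 stood at 13.98, 13.9 and 17.4 CPM in WT and 17.05, 15.2 and 17.7 CPM in the libraries labelled MUL1(-/-), with a log2 fold change of 0.14 ± 0.10 (SE) and an adjusted p of 0.302, so its RNA does not check the labels. Of 8 HEK293 markers all were detected, and PAX2 was lower and NEFM higher in the libraries labelled MUL1(-/-) (log2 fold changes -1.79 and 1.07). VIM was lower by the adjusted p alone (log2 fold change -0.33), and the other 5 did not pass the test. Marker lists of other cell types moved too. Of 5 fibroblast markers 2 rose past both thresholds and 1 fell by the adjusted p alone, and their summed level was 21.8 to 28.97 CPM in WT and 25.6 to 34.3 CPM in the libraries labelled MUL1(-/-). Of 5 leukocyte markers 2 rose past both thresholds (summed level 9.26 to 10.3 CPM against 9.90 to 12.9 CPM) with CD3E at 0 in all WT libraries, and of 5 markers of keratinising epithelium 1 did (0.518 to 0.739 CPM against 0.873 to 1.51 CPM) with KRT6A at 0 in all WT libraries. Their part in the results on the family was not tested.

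The main comparison asked which family members differ in RNA level between the genotypes. PLPPR3, PLPP4, PLPP2 and PLPPR1 were lower in the libraries labelled MUL1(-/-), PLPP5 and PLPPR2 were modestly higher, and PLPP1 and PLPP3 did not pass the test. In bulk RNA, fewer cells that express a gene and less of its RNA per cell cannot be told apart. With edgeR's quasi-likelihood test and Benjamini-Hochberg adjustment over 26060 genes, 4 of the 8 tested members were called lower at an adjusted p under 0.05 with an absolute log2 fold change above 1, and 0 were called higher. Over all tested genes 3.75% were called lower and 4.17% higher. By the adjusted p alone 4 members were lower and 2 higher, where 18.5% of all tested genes were lower and 19.3% higher. The libraries of the genotypes did not overlap in CPM for 7 of the 8 tested members, against 49% of all tested genes. The median log2 fold change of the 8 tested members was -0.68, and that of all tested genes was -0.001. These member counts and this median include PLPPR1, which passed the count filter through its WT libraries alone. It had 17, 33 and 29 counts there and 1, 5 and 1 in the libraries labelled MUL1(-/-). PLPPR4, with 1 count in WT and 9 in the libraries labelled MUL1(-/-), did not pass the filter.

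**Figure D1:**
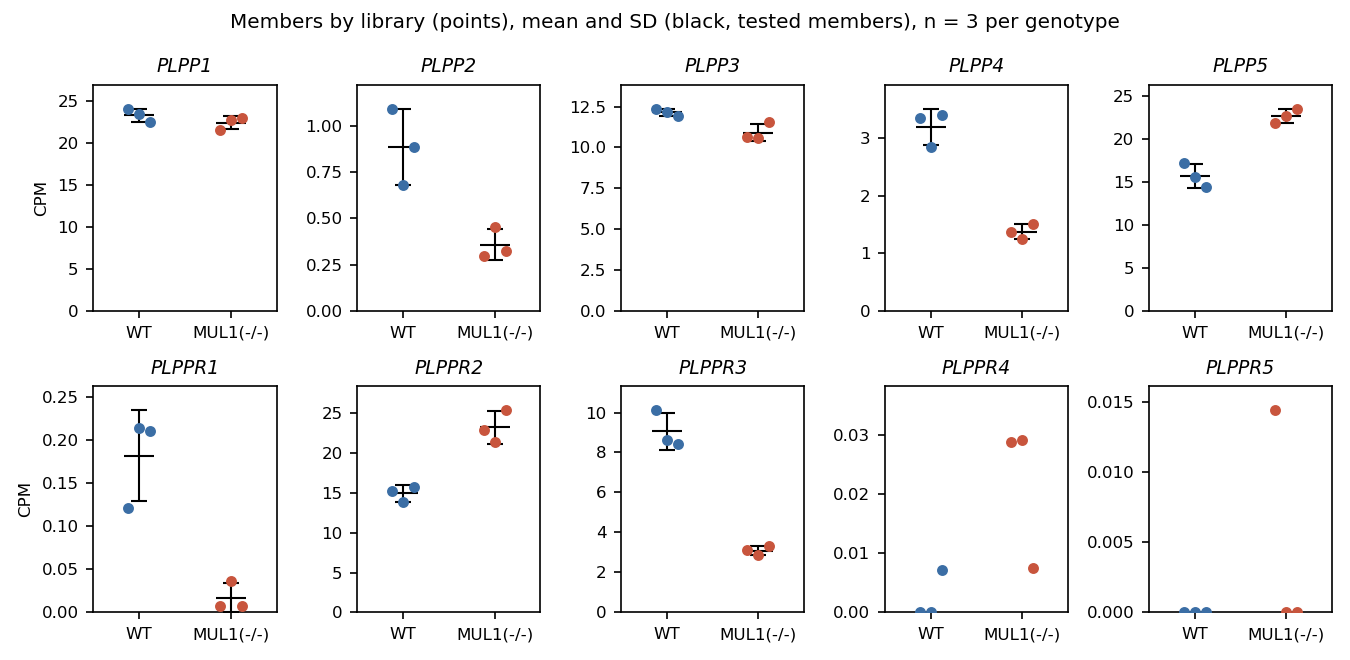
Level of each of the 10 members in CPM (y axis, linear from 0, a scale of its own in each panel) in the 3 WT libraries (blue) and the 3 libraries labelled MUL1(-/-) (red), with mean and SD in black for tested members. PLPP2, PLPP4, PLPPR1 and PLPPR3 sit lower and PLPP5 and PLPPR2 higher in the libraries labelled MUL1(-/-), and PLPP1 overlaps.

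**Figure D2:**
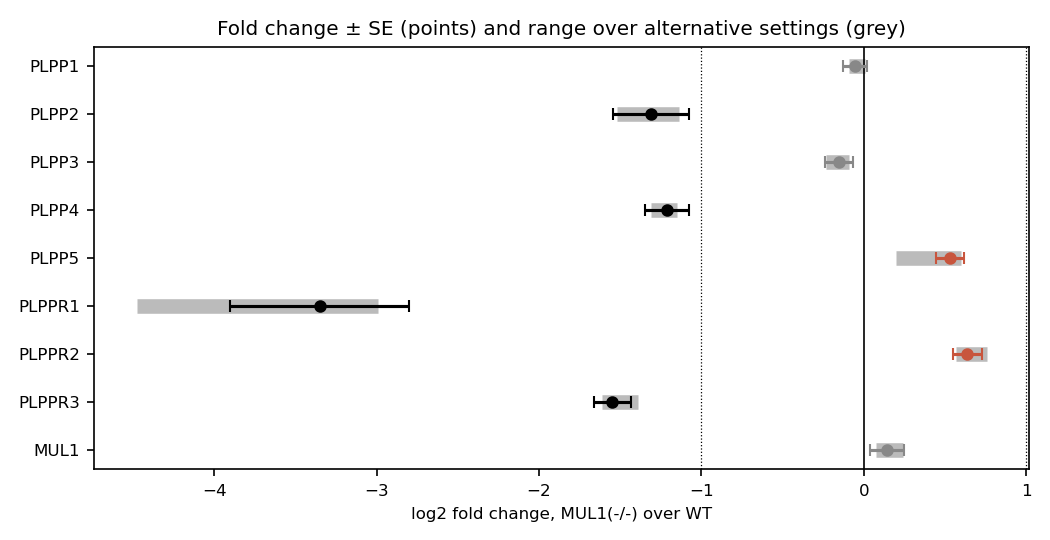
Log2 fold change of the 8 tested members and MUL1 (x axis, MUL1(-/-) over WT) with SE from the edgeR fit, and the range over the alternative settings as grey bars. Black points mark members called lower, red points members higher by the adjusted p alone and grey points genes past neither threshold, and the dotted lines lie at -1 and 1.

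PLPP1 (ENSG00000067113, chr5:55424854-55535050, minus strand) was the most abundant member per length. It had 24.0, 23.4 and 22.4 CPM in WT and 21.5, 22.7 and 22.9 CPM in the libraries labelled MUL1(-/-). The genotypes overlapped, and the log2 fold change was -0.06 ± 0.08 (SE, adjusted p = 0.604). Some of its counts are shared with other genes, since 42.7% lay in bins that other genes' exons also touch, among them MTREX, which meets the 3′ end of PLPP1 from the opposite strand, and the processed pseudogene RNF138P1.

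PLPP2 (ENSG00000141934, chr19:281040-291504, minus strand), the enzyme of the group with the lowest level here, fell to 40.2% of its WT mean. It had 153, 105 and 122 counts in WT and 41, 62 and 43 in the libraries labelled MUL1(-/-), which correspond to 1.09, 0.680 and 0.884 CPM against 0.295, 0.451 and 0.321 CPM. Every WT library lay above every library labelled MUL1(-/-), and the log2 fold change was -1.31 ± 0.23 (SE, adjusted p = 0.000520). These counts were spread over 24 bins, of which 1 reached a mean of 10 counts. That bin makes up 4664 of the gene's 7059 bases and differed little between genotypes (log2 ratio of means -0.16). The other bins held fewer counts, with ratios from -1.66 to 0.69. The lowest came from 12, 10 and 13 counts in WT against 1, 2 and 2 in the libraries labelled MUL1(-/-). The highest came from 0, 0 and 0 counts against 1, 3 and 1. The sum over bins was 8.48 times the count in the most counted bin, so the number of separate reads behind PLPP2 may be smaller than its count. The PLPP2 call was lost when each gene was represented by its most counted bin, because the gene was then filtered out, and likewise with a filter of at least 1 CPM in 3 libraries. Tested with glmTreat against an absolute log2 fold change of 1 it did not pass (adjusted p = 0.703, in a range of 1.50e-06 to 0.703 over its alternatives).

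PLPP3 (ENSG00000162407, chr1:56494747-56645301, minus strand), an enzyme that clears extracellular lysophosphatidate in vascular and other tissues, had 12.4, 12.1 and 11.9 CPM in WT and 10.6, 10.6 and 11.5 CPM in the libraries labelled MUL1(-/-). The genotypes did not overlap, yet the log2 fold change of -0.15 ± 0.09 (SE) did not pass the test (adjusted p = 0.180). Bins also touched by the same-strand gene AC119674.2 held 32.1% of its counts.

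PLPP4 (ENSG00000203805, chr10:120456954-120589855, plus strand) is one of the PLPP enzymes. It had 3.36, 2.84 and 3.40 CPM in WT and 1.37, 1.25 and 1.51 CPM in the libraries labelled MUL1(-/-), so that the highest of the latter was below the lowest WT library. Its mean fell to 43.1% of WT, with a log2 fold change of -1.21 ± 0.14 (SE) and an adjusted p of 1.09e-05. Under glmTreat it likewise did not pass (adjusted p = 0.497, in a range of 9.20e-14 to 0.497 over its alternatives).

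PLPP5 (ENSG00000147535, chr8:38263130-38269243, minus strand), its closest relative in the group, moved the other way. It had 17.2, 15.5 and 14.4 CPM in WT and 21.9, 22.7 and 23.5 CPM in the libraries labelled MUL1(-/-). The genotypes did not overlap, and the mean was 1.44 times that of WT, with a log2 fold change of 0.53 ± 0.09 (SE) and an adjusted p of 0.000251. The increase was below the fold threshold. In the most counted bin alone the log2 fold change was 0.20 and did not pass the test (adjusted p = 0.210), while over all the alternatives it ranged from 0.20 to 0.60.

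Among the PLPPR genes, PLPPR1 (ENSG00000148123, chr9:101028709-101325135, plus strand), which drives membrane protrusions in neurons, was near the limit of detection. It had 17, 33 and 29 counts in WT and 1, 5 and 1 in the libraries labelled MUL1(-/-). The groups did not overlap, and the fitted log2 fold change was -3.35 ± 0.55 (SE, adjusted p = 0.000272). From the summed counts of 79 and 7, WT exceeded MUL1(-/-) 10.7-fold, with an exact 95% interval of 4.96 to 27.5 that covers counting error only and treats counts in neighbouring bins as separate. The floor of 3 counts in a library corresponds to 0.0194 to 0.0224 CPM, and 2 of the 3 libraries labelled MUL1(-/-) were below it. The call held under glmTreat, and PLPPR1 was filtered out, as PLPP2 was, with the most counted bin and with the 1 CPM filter.

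PLPPR2 (ENSG00000105520, chr19:11355386-11365698, plus strand) was the most abundant PLPPR gene. It had 15.3, 13.8 and 15.8 CPM in WT and 22.9, 21.4 and 25.4 CPM in the libraries labelled MUL1(-/-). All 3 libraries labelled MUL1(-/-) lay above WT, and the mean was 1.55 times that of WT (log2 fold change 0.64 ± 0.09 SE, adjusted p = 7.77e-05), below the fold threshold.

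PLPPR3 (ENSG00000129951, chr19:812488-821977, minus strand), a neuronal protein known to promote axon branching, had the smallest p-value of the family. It had 10.1, 8.62 and 8.44 CPM in WT and 3.11, 2.88 and 3.30 CPM in the libraries labelled MUL1(-/-). The groups were far apart, and the mean fell to 34.2% of WT (log2 fold change -1.55 ± 0.11 SE, adjusted p = 2.19e-07). Its last bin, with 25.3% of its counts, also holds the microRNA gene MIR3187 on the opposite strand.

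PLPPR4 (ENSG00000117600, chr1:99263953-99309590, plus strand), a synaptic modulator of lysophosphatidate signalling, had 0, 0 and 1 counts in WT and 4, 4 and 1 in the libraries labelled MUL1(-/-). The summed counts of 1 and 9 give a MUL1(-/-) to WT ratio of 9.49 with an exact 95% interval of 1.32 to 416, for counting error only. PLPPR5 (ENSG00000117598, chr1:98890245-99005032, minus strand) had 0 counts in 5 libraries and 2 counts in MUL1(-/-) replicate 1, under the floor of 3 counts in each. Neither was tested, and no difference was detectable at this depth for PLPPR5.

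Levels were compared between genes per kilobase of exon bins. In WT the order was PLPP1 (11.5 ± 0.39 CPM per kilobase, SD, n = 3), PLPPR2 (4.57 ± 0.31), PLPP5 (3.83 ± 0.35), PLPPR3 (3.30 ± 0.34), PLPP3 (2.30 ± 0.043), PLPP4 (1.79 ± 0.17), PLPP2 (0.125 ± 0.029), PLPPR1 (0.0495 ± 0.014), PLPPR4 and PLPPR5. Neighbours in this order were separated by their library ranges except PLPP5 from PLPPR3 and PLPPR4 from PLPPR5. In the libraries labelled MUL1(-/-), PLPP1 (11.1 ± 0.38 CPM per kilobase), PLPPR2 (7.10 ± 0.62) and PLPP5 (5.53 ± 0.20) stayed first, and PLPP3 (2.06 ± 0.10) stood above PLPPR3 (1.13 ± 0.078) and PLPP4 (0.772 ± 0.073). PLPPR1 overlapped PLPPR4 there, and PLPPR4 overlapped PLPPR5. The order depends on the bins used, and short bins appear to repeat the same reads. With bins of at least 100 bases only, PLPP5 had 1.85 ± 0.021 CPM per kilobase in WT (SD, n = 3) and came after PLPPR3 (2.64 ± 0.30) and PLPP3 (2.17 ± 0.042).

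The summed level of the 5 enzymes did not separate the genotypes when all bins were used, while the library ranges of each enzyme's share did not overlap. Summed over PLPP1 to PLPP5 it was 20.5, 19.4 and 18.9 CPM per kilobase in WT and 18.8, 19.6 and 20.2 in the libraries labelled MUL1(-/-). The two-sided exact permutation test gave p = 0.9, and 0.9 after Benjamini-Hochberg adjustment over 6 values. PLPP5 made up 20.5, 19.6 and 18.5% of the sum in WT and 28.3, 28.3 and 28.4% in the libraries labelled MUL1(-/-). PLPP4 made up 9.19, 8.21 and 10.1% in WT and 4.08, 3.58 and 4.20% in the libraries labelled MUL1(-/-). PLPP3 made up 11.7% ± 0.27 and 10.6% ± 0.30 (SD, n = 3 each), and PLPP2 0.638% ± 0.13 and 0.258% ± 0.060. The exact permutation p was 0.1 for each of the 5 shares (0.12 after adjustment), and 0.1 is the smallest p that 3 against 3 libraries can give. PLPP1 held 58.9% ± 0.89 of the sum in WT against 56.9% ± 0.60 with the label MUL1(-/-), but with bins of at least 100 bases only its share was 60.4% ± 0.45 and 63.0% ± 0.093 (SD, n = 3 each), so its direction turned. With those bins the summed level itself did not overlap between the genotypes, at 14.7, 14.2 and 14.1 CPM per kilobase in WT and 12.8, 13.5 and 13.9 in the libraries labelled MUL1(-/-). With them PLPP5 had a share of 12.9% ± 0.26 and 17.2% ± 0.28 and PLPP4 of 10.999% ± 0.98 and 5.26% ± 0.27, each in the same direction as with all bins.

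Exon bins were then used to ask whether each member changed along its whole length. In PLPPR3 all 15 bins with a mean of at least 10 counts were lower in the libraries labelled MUL1(-/-), with no overlap between genotypes in any of the 15, and log2 ratios of mean CPM from -1.75 to -1.16. In PLPP4 all 10 such bins were lower, 9 without overlap, and the log2 ratios ran from -1.64 to -0.18. The exception was the first bin of PLPP4, chr10:120456954-120457221, with 37, 24 and 18 counts in WT and 17, 20 and 28 in the libraries labelled MUL1(-/-). This bin directly follows the first PLPP4 promoter window, shown above, and overlaps the second, chr10:120456977-120457226, which is not printed.

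In PLPPR2 all 22 such bins were higher, 19 without overlap, with log2 ratios from 0.37 to 0.82. In PLPP5 38 of 40 were higher, 30 without overlap, and the log2 ratios had a median of 0.50 and ran from -0.37 to 0.93. The longest PLPP5 bin, near the 3′ end, had 219, 246 and 219 counts in WT and 237, 243 and 260 in the libraries labelled MUL1(-/-), a log2 ratio of 0.19. PLPP1 bins stayed between -0.21 and 0.07, with 3 of 13 lower without overlap. PLPP3 bins stayed between -0.24 and 0.24, with 2 of 11 lower without overlap. The share of bins without overlap over all genes was not computed, and among whole genes tested it was 49%. Bins that hold the same reads are not separate observations.

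Relative exon bin use was tested with edgeR's diffSpliceDGE and Simes' method, which compares each bin with the rest of its gene. Of 17084 genes 11.2% were called at a gene-level adjusted p under 0.05. Of the 6 members that could be tested (PLPP1, PLPP3, PLPP4, PLPP5, PLPPR2 and PLPPR3) 0 were called, with 1 at an unadjusted p under 0.05, PLPP4 (adjusted p = 0.0596 by diffSpliceDGE). The first PLPP4 bin stood out from the rest of the gene by 0.69 on the log2 scale, with a bin-level adjusted p of 0.0470. PLPP4 was called by limma's diffSplice on voom values (adjusted p = 0.0366) and without WT replicate 1 (0.0354), and its adjusted p over the alternatives ranged from 0.0354 to 0.651, so its call rests on the setting. PLPP3 was called without MUL1(-/-) replicate 3 (adjusted p = 0.0304 by diffSpliceDGE), in a range of 0.0304 to 1 over its alternatives. Which PLPP3 bins gave that call was not examined. Reads that touch several bins would make bins dependent.

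**Figure D3:**
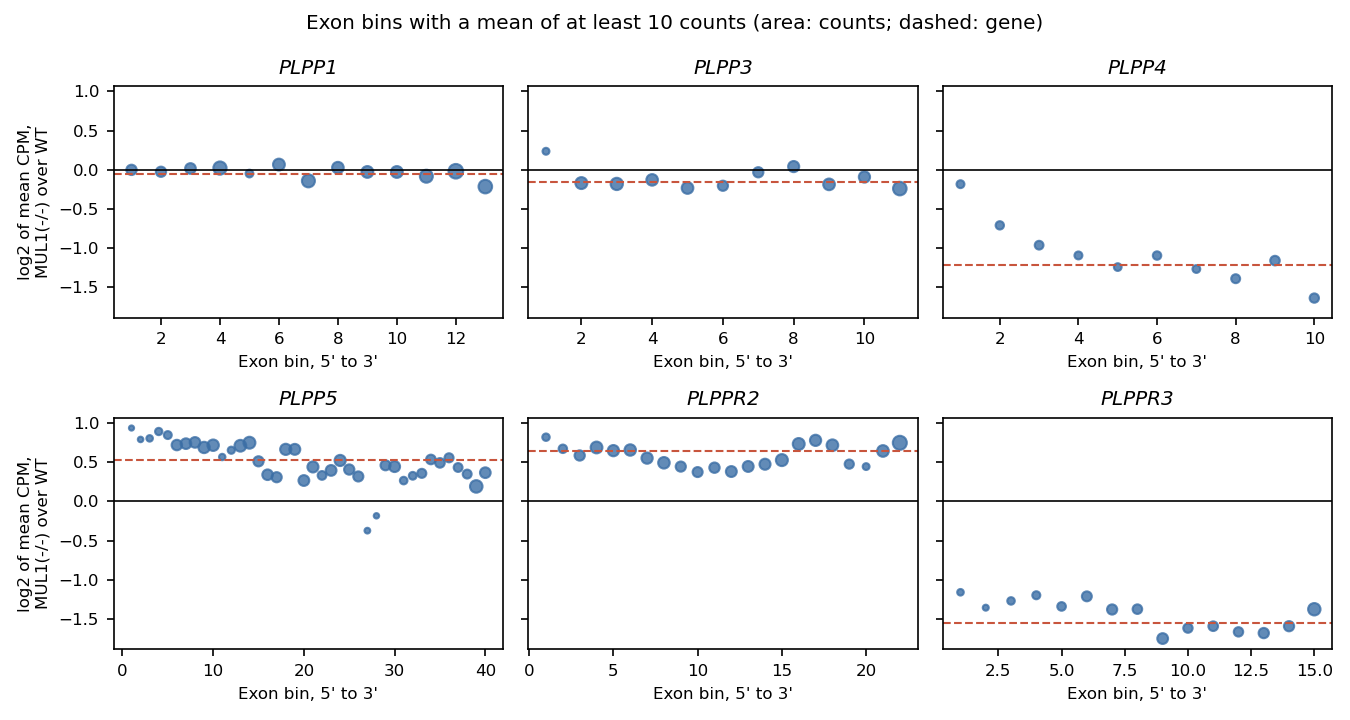
Log2 ratio of mean CPM, MUL1(-/-) over WT (y axis), for each exon bin with a mean of at least 10 counts in 6 members, in order from 5′ to 3′ (x axis, rank), with point area growing with the counts and the gene's fitted log2 fold change as a dashed line. All PLPPR3 bins lie between -1.75 and -1.16, and the first PLPP4 bin lies at -0.18.

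Genes next to a member on the chromosome were described without a test, as the 10 nearest tested genes on each side. For comparison, 19.3% of all tested genes were higher and 18.5% lower at an adjusted p under 0.05. Several members changed in the same direction as genes beside them. Among the 20 neighbours of PLPP5, 11 were higher and 0 lower at an adjusted p under 0.05, and their median log2 fold change was 0.39, against 0.53 for PLPP5 itself. Among the 20 neighbours of PLPPR2, 9 were higher and 0 lower, with a median of 0.32 against 0.64 and single values from -0.09 to 1.49. Of the 10 nearest to PLPPR2, 5 on each side, 2 were higher and 0 lower, near the share over all tested genes. Their median was 0.23.

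Among the 20 neighbours of PLPP4, 8 were lower and 2 higher, with a median of -0.36 against -1.21 for PLPP4. Among the 20 neighbours of PLPPR3, 8 were lower and 0 higher, with a median of -0.35 against -1.55. The PLPPR3 neighbours include MIR3187 (-1.42), which lies opposite PLPPR3's last bin. Whether its counts come from PLPPR3 reads was not tested, and the strand setting of the counts is not given. Also among them are the neutrophil granule genes AZU1 (-1.57) and PRTN3 (-1.84), named after their values were seen. PLPP2 lies close to the end of chromosome 19 and has 13 neighbours, of which 5 were lower and 0 higher, with a median of -0.29 against -1.31. The windows of PLPP2 and PLPPR3, both near that end, share 0 genes.

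PLPPR1 differed most from its surroundings. Of its 20 neighbours 7 were higher and 2 lower, with a median of 0.15 where PLPPR1 stood at -3.35. The neighbours of PLPP1 had a median of 0.23, with 5 higher and 1 lower, and those of PLPP3 a median of 0.11, with 5 higher and 0 lower. The numbers higher were near the share over all tested genes. These medians were on the other side of 0 from the member in both cases, but with 20 genes on each side they were 0.0077 and 0.012. Windows of 5 and 20 genes kept the sign of the median for PLPP1, PLPP2, PLPP4, PLPP5, PLPPR1, PLPPR2 and PLPPR3. Whether these members share a change with their region was not tested.

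For each member called lower, the 3 genes of at least 1 CPM with the most similar profile over the 6 libraries were found by the root mean square difference of centred log2 CPM. For PLPPR3 they were MGMT (0.07), EFNA2 (0.08) and HOXC11 (0.08), and for PLPP4 they were GPX3 (0.07), GAMT (0.10) and LRRC4 (0.10). For PLPP2 the differences were larger, with LINC01033 (0.14), AL592183.1 (0.16) and OSER1-DT (0.17), and for PLPPR1 larger again, with MST1R (0.39), BST2 (0.43) and TMEFF2 (0.45). All 6 libraries entered this measure, with the difference between genotypes included.

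The other genes that make, use or sense the same lipids were counted in 4 lists. The counts are to be read against the 19.3% of all tested genes that were higher and the 18.5% that were lower, and nothing is called particular to a list. No gene of these lists with a mean of at least 1 CPM passed both thresholds, so the genes below were named after their values were seen. Of 11 relatives with the same phosphatase fold 9 were tested, 1 rose and 2 fell by the adjusted p alone, and the list's median log2 fold change was 0.06. PLPP7, a relative without known phosphatase activity, rose (log2 fold change 0.86 ± 0.21 SE), and SAMD8, a ceramide phosphoethanolamine synthase, fell from 31.4 ± 2.22 to 19.5 ± 1.18 CPM (SD, n = 3 each). SGPP2, a sphingosine 1-phosphate phosphatase, fell by 0.41 on the log2 scale.

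Of 28 genes of phosphatidate and diacylglycerol metabolism 27 were tested, 6 rose and 4 fell, and the median was -0.02. The acyltransferases GPAT3 and GPAT4, at the entry of glycerolipid synthesis, rose by 0.73 and 0.63 on the log2 scale, while LPIN2, a soluble phosphatidate phosphatase of the lipin family, fell by 0.59 and the diacylglycerol kinase DGKE fell by 0.54. The diacylglycerol kinase DGKB passed both thresholds at a low level, from 0.192 ± 0.072 to 0.621 ± 0.15 CPM (SD, n = 3 each).

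Of 10 makers and receptors of lysophosphatidate 8 were tested, with the phospholipase LIPH higher (0.40) and the receptor LPAR2 lower (-0.43) on the log2 scale and a list median of 0.23. ENPP2, which encodes autotaxin, had a log2 fold change of 0.22 ± 0.10 (SE) and did not pass the test (edgeR adjusted p = 0.0915). Of 12 genes of sphingosine and ceramide phosphates 11 were tested, 4 rose and 5 fell, and the median was 0.02. Members of the same step moved in opposite directions there. The sphingosine kinase SPHK1 fell by 0.70 and SPHK2 rose by 0.81, and the exporter SPNS2 rose by 0.87 where the exporter MFSD2B fell by 0.86, all on the log2 scale.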

How the data were processed

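HEK293 RNA was sequenced in 3 WT and 3 MUL1(-/-) libraries. Per the submitters' processing notes, reads were trimmed with Trimmomatic 0.36 and aligned with STAR 2.5.2b to GRCh38. The counting program, its strand setting and its annotation release were not given in the sources used here. The files the authors deposited hold raw counts for 597973 exon bins, with no normalization, and each read appears to be counted in every bin it touches, so sums over bins would exceed the number of reads.

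Here counts were summed over the bins of a gene. Of 86182 bins under identifiers that join several genes, 15566 were given to more than 1 gene by overlap with GENCODE 29 exons on that strand and 376 to none. Genes were fitted with edgeR 4.0.16 (TMM, filterByExpr, quasi-likelihood test, Benjamini-Hochberg adjustment) in R 4.3.3. DESeq2 1.42.0 and limma 3.58.1 gave alternatives. The thresholds were those of the study's methods. The edgeR gene fit was tested on simulated data with 200 changed genes among 26060, and 200 were recovered. Shares were compared with exact two-sided permutation tests (scipy). Log2 CPM used a prior count of 2, and ratios per bin a pseudocount of 0.02 CPM. Intervals and floors of 3 counts cover counting error only. The rule for named genes took the members, MUL1, list genes past both thresholds averaging 1 CPM or more (there were none in the lipid lists), and the 3 most similar genes to each called member. Other list genes, markers and neighbours were named after their values were seen or where their exons touch a member's bins. Members and lists were chosen with earlier results of these data known. Sequences came from RefSeq (GRCh38.p14) promoter tables and GENCODE 29 transcripts.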

Additional observations from a re-analysis of the deposited data

How the results depend on the processing

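The 4 members called lower (PLPP2, PLPP4, PLPPR1 and PLPPR3) were 4 in number under limma-voom, DESeq2, library totals, RLE factors, no filter, bins no other gene touches, joined identifiers kept whole and each library left out. They were 2 with at least 1 CPM in at least 3 libraries (where 348 genes were called higher and 452 lower in all) and 2 with each gene's most counted bin, both of which leave out PLPP2 and PLPPR1. They were 2, PLPPR1 and PLPPR3, under glmTreat, which tests against an absolute log2 fold change of 1 and called 307 genes higher and 329 lower. The members higher by the adjusted p, 2 in the report, were 0 under glmTreat and 1 with the most counted bin. PLPP1, at -0.06, stood at 0.0074 with library totals. Leaving out a library gave 1022 to 1288 genes called higher and 926 to 1095 lower. The difference in summed level of PLPP1 to PLPP5, MUL1(-/-) minus WT, was -0.06 CPM per kilobase and ranged from -0.39 to 0.39 when a library was left out, being 0.386 without WT replicate 1 and 0.300 without MUL1(-/-) replicate 1. It was -0.94 with bins of at least 100 bases. The PLPP1 share difference of -2.06 percentage points was 2.59 with bins of at least 100 bases. Members with changed exon bin use, 0 in the report, were 1 under limma's diffSplice and 0 to 1 when a library was left out. Genes with changed bin use, 1921 in all, were 955 without WT replicate 2 and 1146 without WT replicate 1, and 2513 under limma's diffSplice. The median log2 fold change around PLPP3, 0.11, was -0.033 with 5 genes on each side, and that around PLPP1, 0.23, was 0.0077 with 20. Low counts limit PLPP2, PLPPR1, PLPPR4 and PLPPR5.

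With the replicate number as a block 1035 genes were called higher and 947 lower, 4 members lower and 0 higher, and the block changed no member's call. The deviations of same-numbered libraries correlated at -0.11, 0.17 and 0.10, so the numbers were not taken to pair the libraries.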

Other observations

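PLPP3 had 2 bins far upstream of its main start, chr1:56645273-56645301 and chr1:56645218-56645272, whose counts went the other way from the rest of the gene. The first had 5, 5 and 5 counts in WT and 13, 10 and 8 in the libraries labelled MUL1(-/-), and the second had 5, 4 and 2 counts against 14, 11 and 8. PRKAA2, a catalytic subunit of AMP-activated protein kinase, is annotated on the opposite strand just beyond these bins. They were picked after their values were seen, and their counts were too low to enter the main fit of exon bin use. With a library left out the count filter may admit them through the libraries labelled MUL1(-/-) alone. Whether the PLPP3 call without MUL1(-/-) replicate 3 rests on them was not tested.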
